A study of Arabidopsis thaliana with 12 samples.

Results

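The genes described here are 35 nuclear genes of Arabidopsis thaliana that encode working parts of the photosynthetic machinery, listed by gene identifier. They are 12 genes for subunits of photosystem I, 11 for subunits of photosystem II, 5 for electron carriers (plastocyanin, the Rieske protein of cytochrome b6f, ferredoxin and both leaf forms of ferredoxin-NADP reductase), 2 for the chloroplast ATP synthase and 5 for Rubisco small subunits and Rubisco activase. They are 35 of the 33559 genes in the deposited table, and all 35 were among the 20251 genes that passed the filter on low values, an FPKM of at least 1 in at least 2 libraries. Genes of the light-harvesting antenna were not included. The study sequenced RNA of whole seedlings, 12 days old, grown on MS medium, of the wild type Col-0 and of smeb-1 and smeb-2, lines mutant in SmEb (AT2G18740). The product of SmEb belongs to the Sm proteins, which form the ring at the heart of the splicing ribonucleoproteins. Each line was sampled untreated, called control below, and after 200 mM NaCl for 6 h, called salt below, which gave 6 groups of 2 libraries. FPKM, the unit of the deposited values, is fragments per kilobase of transcript scaled to the mapped fragments of the library, so levels of different genes can be set side by side.

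Photosystem II takes electrons from water and passes them through the cytochrome b6f complex and plastocyanin to photosystem I, which reduces ferredoxin, and ferredoxin-NADP reductase then makes NADPH. The proton gradient built on the way drives the ATP synthase, and ATP and NADPH feed carbon fixation by Rubisco, whose small subunits are nuclear-encoded and whose catalytic sites are kept free by Rubisco activase. Genes for these proteins are among the most strongly expressed in green tissue, are switched on by light in seedlings and are widely known to be turned down under salt and drought.

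The label check was the SmEb transcript itself. It stood at 58.9 and 55.1 FPKM in the Col-0 control libraries, at 27.6 and 26.0 in smeb-1 control and at 4.93 and 6.24 in smeb-2 control. In salt the values were 73.3 and 76.1 in Col-0, 23.2 and 22.9 in smeb-1 and 1.92 and 2.04 in smeb-2, so the 3 lines did not overlap in either treatment. Values of a pair are given throughout in the order of the 0 and 1 that end the column names, and these could not be tied to the replicate numbers of the labels. It is not stated whether both libraries of a group had their own plants, and p-values here reflect only the spread between these samples, which may be technical. Read totals are not given. The Col-0 salt libraries stood apart as a pair. They differed by a median of 0.297 on the log2 scale over the 35 genes, against 0.0259 to 0.0651 in the other 5 groups, and 34 of the 35 genes were higher in the first of them. The label descriptions of the salt-treated samples also carry the letters Cd, while their titles and treatment fields say salt. The controls are labelled as untreated for 6 h and the protocol names 0 or 6 h, so a difference in time of day between control and salt cannot be told apart from the salt itself.

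In untreated Col-0 these genes filled the top of the expression table. RBCS1A (AT1G67090), the main Rubisco small subunit gene, was the highest of the 35 and ranked 2 among all genes, at 9970.5 and 10484 FPKM. PSBR (AT1G79040), for a small photosystem II protein near the oxygen-evolving complex, ranked 4, PSAO (AT1G08380), for a photosystem I subunit on the side that binds mobile antenna, ranked 9, and RBCS3B ranked 10. The lowest was FNR1 (AT5G66190), for a ferredoxin-NADP reductase, at 561 and 579 FPKM and rank 149. Together the 35 genes held 10.7% and 10.9% of all FPKM in Col-0 control, and 5.88% and 4.60% in Col-0 salt. The share stayed higher in salt in the mutants, at 8.32% and 8.20% in smeb-1 and at 7.48% and 7.69% in smeb-2, from 11.0% to 11.5% in their controls. No member came near the floor of detection, since the lowest value in any library was 68.0 FPKM, for PSAD2.

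**Figure D1:**
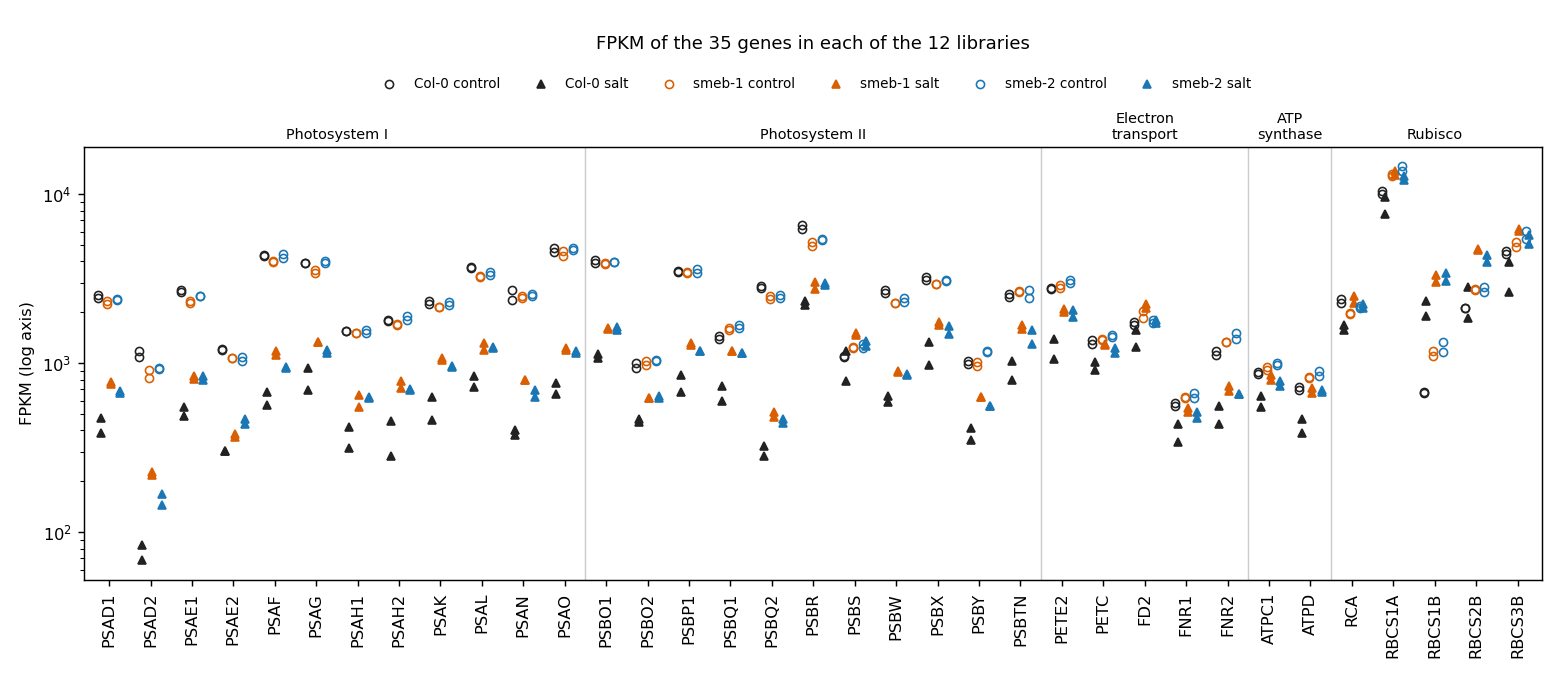
FPKM of each of the 35 genes (log10 axis) in each of the 12 libraries, with genes grouped by complex and points coloured by line and treatment. In salt the Col-0 points lie lowest for all 35 genes, and RBCS1B is higher in salt than in control in all 3 lines.

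With salt in Col-0, 31 of the 35 genes fell, 1 rose and 3 did not pass the test (limma on log2(FPKM + 1), call at an adjusted p under 0.05 after Benjamini-Hochberg adjustment over all tested genes). Salt moved much of the transcriptome, and 27.7% of all tested genes were called lower and 34.1% higher. Under quantile normalization, which forces the libraries onto the same distribution, 26 of the 35 fell and 8 rose. The median difference was -1.48 on the log2 scale over the 35 genes and 0.04 over all tested genes. Scaling the libraries to a common FPKM total, which moved the median of all genes to 0.20, left the median of the 35 genes at -1.30. Quantile normalization brought it to -0.80. In 33 of the 35 genes the salt and control libraries of Col-0 did not overlap, the exceptions being PSBS and RBCS2B. How many of all tested genes showed no overlap was not counted, so the 33 has no background share. The fall was graded by complex: 12 of 12 photosystem I genes fell with a median of -2.35, 10 of 11 photosystem II genes with a median of -1.48, and the Rubisco group had a median of -0.25. Photosystem I genes spanned -3.89 to -1.99, and no gene of the electron carriers, the ATP synthase or Rubisco fell as far as any of them. Because whole seedlings were sequenced, fewer green cells and less RNA per cell cannot be told apart.

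**Figure D2:**
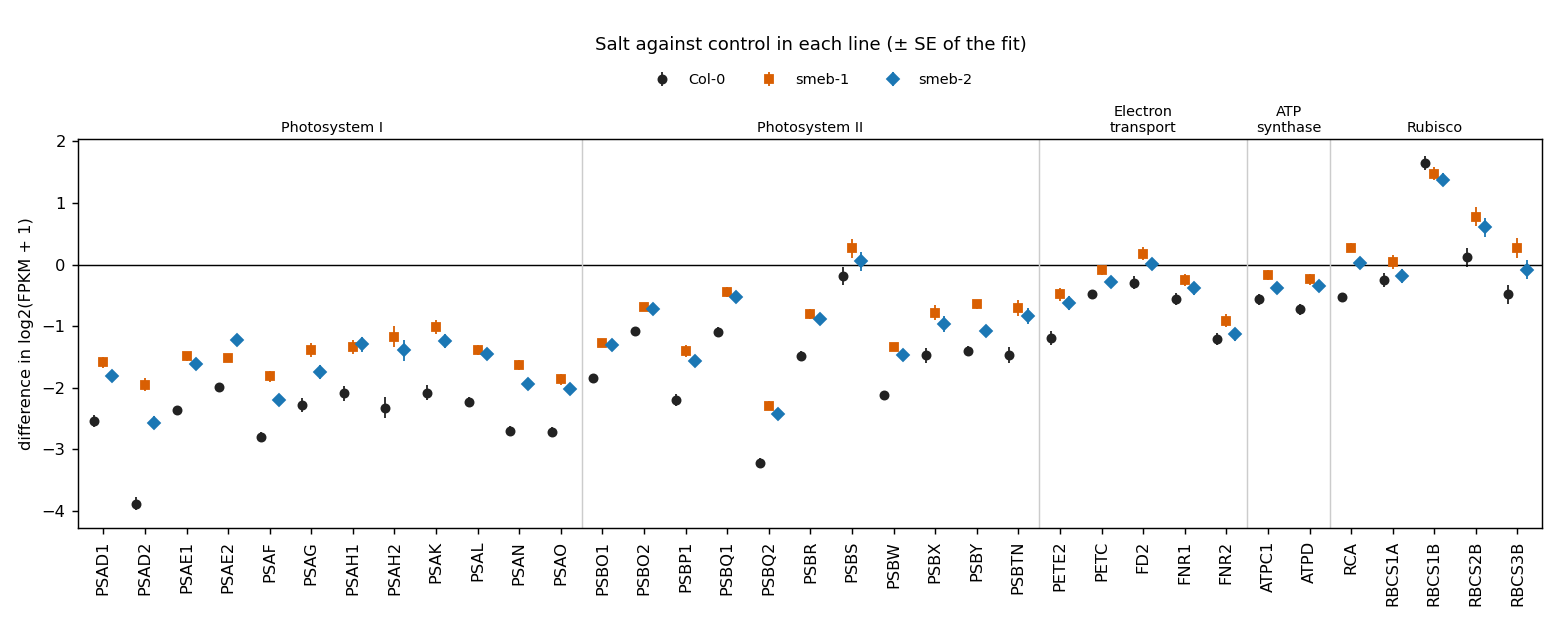
Salt minus control for each gene on the log2(FPKM + 1) scale, with the SE of the fit as bars, for Col-0, smeb-1 and smeb-2. Photosystem I has the lowest median in every line (-2.35, -1.51 and -1.68), PSBQ2 of photosystem II lies among the lowest genes, and the Rubisco genes of Col-0 lie between -0.53 and 1.65, with RBCS1B at 1.65, 1.48 and 1.38; under quantile normalization 6 Col-0 points (PSBS, PETC, FD2, RCA, RBCS1A and RBCS3B) move above 0.

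Among photosystem I genes, the largest fall of all 35 in Col-0 was that of PSAD2 (AT1G03130), which encodes a form of the stromal subunit that docks ferredoxin. PSAD2 stood at 1182 and 1087 FPKM in Col-0 control and at 84.2 and 68.0 in Col-0 salt, a 14.9-fold fall (log2 difference -3.89 ± 0.107, limma adjusted p = 6.09e-09). In smeb-1 it went from 911 and 821 to 228 and 218 FPKM, a 3.89-fold fall, and in smeb-2 from 926 and 939 to 168 and 145, a 5.96-fold fall. The salt libraries of the 3 lines did not overlap, with Col-0 lowest, smeb-2 between and smeb-1 highest. Its partner PSAD1 (AT4G02770), with the same role, held 2548 and 2446 FPKM in Col-0 control and 476 and 384 in Col-0 salt, a 5.80-fold fall. PSAD1 salt values were 749.7 and 777 in smeb-1 and 684 and 667 in smeb-2, all above Col-0.

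PSAF (AT1G31330), which helps plastocyanin bind on the lumenal side, had the second largest fall of the complex and was among its most abundant transcripts. Its level dropped from 4289 and 4384 FPKM to 678 and 569 in Col-0, from 3995 and 4053 to 1173 and 1114 in smeb-1 and from 4195 and 4459.9 to 956 and 931 in smeb-2. PSAO stood at 4551 and 4825 in Col-0 control and 768 and 661 in Col-0 salt, a 6.56-fold fall, and PSAN (AT5G64040), a lumenal subunit, fell 6.52-fold from 2535 ± 225 FPKM (mean ± SD, n = 2). In each of these 3 genes every mutant salt library was above both Col-0 salt libraries and below every control library. PSAE1 (AT4G28750) and PSAE2 (AT2G20260), which encode a stromal subunit involved in ferredoxin reduction and cyclic flow, fell 5.16-fold and 3.97-fold in Col-0. PSAH1 (AT3G16140), PSAH2 (AT1G52230) and PSAL (AT4G12800), subunits of the face where mobile antenna docks, fell 4.23-fold, 4.88-fold and 4.70-fold, and PSAG (AT1G55670) and PSAK (AT1G30380), membrane subunits of the antenna side, fell 4.81-fold and 4.19-fold. PSAE2, with the smallest fold of the 12 in Col-0, went from 1189.6 and 1215 to 304 and 301 FPKM. All 12 also fell in smeb-1 (median -1.51) and in smeb-2 (median -1.68). Summed over the 12 genes, FPKM went from 32305 ± 433 to 5935 ± 863 in Col-0 (mean ± SD, n = 2), a 5.44-fold fall, and fell 2.86-fold in smeb-1 and 3.29-fold in smeb-2.

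The photosystem II genes split between members of the oxygen-evolving complex, small membrane subunits and the photoprotection protein PSBS. PSBQ2 (AT4G05180) and PSBQ1 (AT4G21280) encode copies of an extrinsic lumenal protein of the oxygen-evolving complex, and they ended at different depths. PSBQ2 fell from 2793 and 2880.2 FPKM in Col-0 control to 325 and 281 in salt, 9.37-fold (log2 difference -3.23 ± 0.0801, limma adjusted p = 3.80e-09). PSBQ1 fell from 1449 and 1385 to 735 and 598, 2.13-fold (log2 difference -1.09 ± 0.0887, limma adjusted p = 4.07e-06). PSBQ2 was the higher copy in every control library and PSBQ1 the higher copy in every salt library. In smeb-1 salt PSBQ2 held 515 and 481 FPKM and PSBQ1 held 1178 and 1176. In smeb-2 salt the values were 469 and 443 for PSBQ2 and 1148 and 1149.5 for PSBQ1.

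The promoters of this pair are shown because the copies moved by such different amounts; each run is the 250 bases before the annotated gene start in RefSeq's TAIR10.1, 5′ to 3′, with G-boxes (CACGTG) and I-boxes (GATAAG or its reverse complement) in capitals.
PSBQ1 (chr4:11334102-11334351, plus strand): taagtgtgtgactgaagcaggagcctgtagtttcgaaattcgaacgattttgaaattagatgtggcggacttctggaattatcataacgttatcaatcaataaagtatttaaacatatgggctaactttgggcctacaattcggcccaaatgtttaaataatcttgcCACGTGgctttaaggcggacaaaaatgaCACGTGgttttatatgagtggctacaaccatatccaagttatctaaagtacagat
PSBQ2 (chr4:2673244-2673493, minus strand): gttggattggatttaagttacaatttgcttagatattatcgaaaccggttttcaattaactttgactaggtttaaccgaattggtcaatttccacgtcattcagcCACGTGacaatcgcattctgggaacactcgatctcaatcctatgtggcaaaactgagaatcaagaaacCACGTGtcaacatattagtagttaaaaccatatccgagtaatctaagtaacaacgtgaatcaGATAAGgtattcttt
Both windows hold 2 G-boxes, and PSBQ2 holds 1 I-box close to the gene start. The G-boxes of PSBQ1 begin 83 and 55 bases before the start, those of PSBQ2 145 and 77 bases before it. A TATA box (TATAAA, not in capitals) was found in the PSBQ1 window on the opposite strand, where the printed run reads TTTATA, and on neither strand of the PSBQ2 window. A match of letters is no evidence that a factor binds there.

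PSBP1 (AT1G06680), another extrinsic protein of the oxygen-evolving complex, fell from 3491 and 3480.3 to 848 and 677 FPKM in Col-0, 4.57-fold. PSBO1 (AT5G66570), for the main form of the manganese-stabilising protein, fell from 3904 and 4064 to 1137 and 1075, 3.60-fold, and its minor copy PSBO2 (AT3G50820) fell from 935 and 997 to 466 and 452, 2.11-fold. For PSBP1, PSBO1 and PSBO2 the salt libraries of both mutants lay above those of Col-0 and below the controls. Of the small subunits, PSBW (AT2G30570) fell 4.33-fold, PSBR 2.80-fold, PSBX (AT2G06520) 2.75-fold, PSBY (AT1G67740) 2.65-fold and PSBTN (AT3G21055), a small lumenal protein, 2.75-fold in Col-0. PSBS (AT1G44575), the sensor of lumen acidity for heat dissipation of excess light, was not called with salt in any line. PSBS values were 1098 and 1089.7 FPKM in Col-0 control and 1189 and 782 in Col-0 salt (log2 difference -0.18 ± 0.150, limma adjusted p = 0.317), and the groups overlapped. Its differences were 0.26 ± 0.150 in smeb-1 and 0.05 ± 0.150 in smeb-2. With the higher Col-0 salt library left out, the PSBS difference in Col-0 was -0.48, a value that rests on 1 salt library. The other 10 photosystem II genes fell in smeb-1 (median of all 11, -0.78) and smeb-2 (-0.97) as well, although under quantile normalization PSBQ1 and PSBTN turned slightly positive in both mutants and PSBX in smeb-1. Summed over the 11 genes, FPKM fell 3.07-fold in Col-0, 1.90-fold in smeb-1 and 2.08-fold in smeb-2.

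The electron carriers fell less. PETE2 (AT1G20340), the major plastocyanin, went from 2771 and 2762 FPKM in Col-0 control to 1383 and 1063 in salt, 2.26-fold, and FNR2 (AT1G20020), a ferredoxin-NADP reductase, from 1119 and 1174 to 559.6 and 439.6, 2.30-fold. FNR1 fell 1.46-fold and PETC (AT4G03280), the Rieske iron-sulfur protein of the b6f complex, 1.39-fold. FD2 (AT1G60950), the main leaf ferredoxin, stood at 1686 and 1750.0 in Col-0 control and 1577 and 1245 in Col-0 salt, close to the limit of the call (log2 difference -0.29 ± 0.104, limma adjusted p = 0.0315). Its call was lost without either Col-0 control library or without the lower Col-0 salt library (adjusted p = 0.0743, 0.128 and 0.195), and over its alternatives the difference ran as far as 0.71 under quantile normalization, which also turned PETC to 0.34. In smeb-1 FD2 was at 2024 and 1855 in control and 2249 and 2127 in salt. In smeb-2 it was at 1724 and 1792 and then 1732 and 1803, and it did not pass the test in either mutant. PETE2 and FNR2 fell in both mutants, PETC and FNR1 fell in smeb-2 and were not called in smeb-1. PETE2 and PETC turned positive in both mutants under quantile normalization.

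Of the ATP synthase genes, ATPC1 (AT4G04640), the gamma subunit of the rotor stalk, went from 862 and 891 FPKM to 638 and 548 in Col-0, 1.48-fold lower, and from 973 and 1002 to 729 and 788 in smeb-2, 1.30-fold lower. In smeb-1 it stood at 951 and 910.4 in control and 853 and 799 in salt and was not called (limma adjusted p = 0.0958), and its difference of -0.17 became 0.11 under quantile normalization. ATPD (AT4G09650), the delta subunit that holds the stator to the head, fell 1.65-fold in Col-0, 1.18-fold in smeb-1 and 1.27-fold in smeb-2. The smeb-1 call of ATPD had an adjusted p of 0.0384 and held under 6 of 19 alternatives, with adjusted p up to 0.179 when a library was left out and 0.717 under quantile normalization.

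The Rubisco group went in different directions by gene. RBCS1B (AT5G38430), a small subunit gene of low level, was the 1 member that rose in Col-0. It stood at 678 and 666 FPKM in Col-0 control and at 2323 and 1907 in Col-0 salt, 3.15-fold of control (log2 difference 1.65 ± 0.109, limma adjusted p = 1.09e-06). RBCS1B rose from 1176 and 1106 to 3033 and 3321 in smeb-1 and from 1157 and 1340.4 to 3083 and 3410.1 in smeb-2. Every salt library was above every control library, and every smeb library was above every Col-0 library of the same treatment. RBCS1A, the most abundant of the 35 genes, did not pass the test with salt in any line. Its values were 9970.5 and 10484 in Col-0 control and 9668 and 7649 in Col-0 salt, where the log2 difference was -0.25 ± 0.113 (limma adjusted p = 0.0786). With the higher Col-0 salt library left out the RBCS1A difference was -0.42, and under quantile normalization it turned to 0.91.

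RBCS2B (AT5G38420) stood at 2111 and 2114 FPKM in Col-0 control and 2821 and 1857 in Col-0 salt, which overlapped and were not called. It rose from 2766 and 2730.4 to 4709 and 4720.3 in smeb-1 and from 2649 and 2844 to 3964 and 4389.9 in smeb-2 (limma adjusted p = 0.00178 and 0.00713). Without the lower Col-0 salt library, the RBCS2B difference in Col-0 was 0.42, a value that rests on 1 salt library. RBCS3B (AT5G38410) went from 4639.5 and 4449 to 3972 and 2657 in Col-0, a call (limma adjusted p = 0.0231) that was lost without either Col-0 control library or without the lower Col-0 salt library (adjusted p = 0.0946, 0.0643 and 0.133). In smeb-1 it held 4898 and 5251 in control and 6187 and 6042 in salt. The smeb-2 values were 5413 and 6069.6 in control and 5096 and 5760.4 in salt, and neither mutant passed the test. RCA (AT2G39730), Rubisco activase, fell from 2276 and 2396 to 1674 and 1562 in Col-0 (-0.53 ± 0.0729) and rose from 1959 and 1987 to 2499 and 2286 in smeb-1 (0.28 ± 0.0729). In smeb-2 it stood at 2124 and 2185 in control and 2127 and 2236 in salt, which overlapped. The smeb-1 rise of RCA was lost without 1 of the smeb-1 salt libraries (adjusted p = 0.0656). Summed over the 5 genes, salt FPKM was 0.907 of control in Col-0, a ratio that turned to 1.03 with libraries scaled to a common total, and 1.24 and 1.06 of control in smeb-1 and smeb-2.

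RBCS1B, RBCS2B and RBCS3B lie side by side on the minus strand of chromosome 5, between 15376988 and 15385320 in TAIR10.1, and RBCS1A lies on chromosome 1. Their coding sequences are so alike (87.7% to 97.3% identical in pairs, 97.3% between RBCS1B and RBCS2B) that the split of reads among them is uncertain, and how the counting treated shared reads is not given in the sources used here. The windows of RBCS1B and RBCS2B are shown because neighbouring genes with nearly the same coding sequence differed in their response in Col-0, marked as above.
RBCS1B (chr5:15385321-15385570, minus strand): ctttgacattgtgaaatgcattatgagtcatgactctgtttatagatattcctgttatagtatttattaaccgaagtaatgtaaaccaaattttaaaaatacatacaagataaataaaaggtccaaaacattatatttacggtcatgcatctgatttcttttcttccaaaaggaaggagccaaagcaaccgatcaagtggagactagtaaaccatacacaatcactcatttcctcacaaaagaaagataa
RBCS2B (chr5:15382072-15382321, minus strand): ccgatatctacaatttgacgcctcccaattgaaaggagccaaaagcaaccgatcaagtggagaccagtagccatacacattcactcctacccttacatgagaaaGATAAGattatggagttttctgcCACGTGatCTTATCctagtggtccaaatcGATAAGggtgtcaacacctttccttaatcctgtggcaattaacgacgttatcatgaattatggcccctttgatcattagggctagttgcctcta
The RBCS2B window holds 1 G-box and 3 I-boxes, and the RBCS1B window holds neither. The RBCS1B window ends within a stretch that resembles the one leading into the first I-box of RBCS2B. Any match to the rest of the RBCS2B window would lie past that end, so the motif counts of these windows are not comparable. The annotated start of RBCS1B is that of its outermost transcript, and another of its transcripts starts further in, so the window may not be the promoter in use. Over the windows of all 35 genes, 7 held a G-box against 6.49% of 27443 windows of protein-coding genes, and 10 (28.6%) held an I-box against 12.3%. The abscisic-acid-type element ACGTGNC, which overlaps the G-box where both are found, was in 10 (28.6%) against 8.57% of all windows. The TATA box was in 16 (45.7%) against 47.3%, the CCA1-binding site AAAAATCT in 2 (5.71%) against 6.69%, and the evening element AAAATATCT in 1 against 2.36%. Both strands were searched, and these shares are a description without a test.

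**Figure D3:**
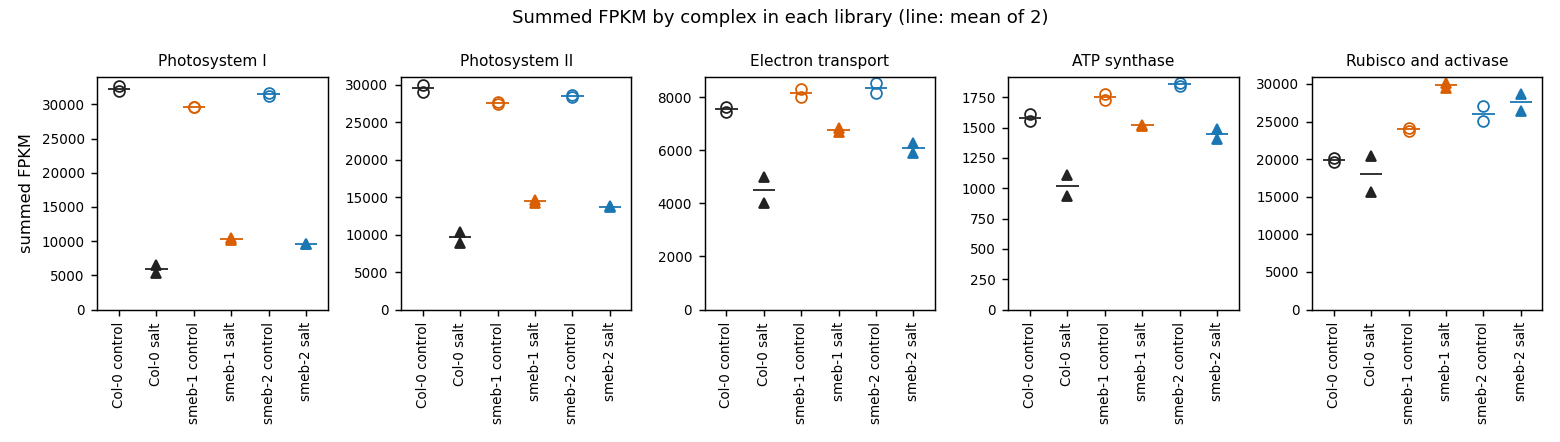
Summed FPKM of the genes of each complex in control and salt for Col-0, smeb-1 and smeb-2 (circles, control libraries; triangles, salt libraries; short lines, mean of 2; each axis from 0). Photosystem I sums fell 5.44-fold in Col-0, 2.86-fold in smeb-1 and 3.29-fold in smeb-2, while the Rubisco sum in salt was 0.907, 1.24 and 1.06 of control, the Col-0 ratio turning to 1.03 with libraries scaled to a common total.

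With salt in smeb-1, 25 of the 35 genes fell and 3 rose (RCA, RBCS1B and RBCS2B), where 26.8% and 31% of all tested genes were called lower and higher, and the median was -0.81. With salt in smeb-2, 28 fell and 2 rose (RBCS1B and RBCS2B), where 27.7% and 32% of all tested genes were called lower and higher, and the median was -1.08. Under quantile normalization the medians were -0.49 in smeb-1 and -0.51 in smeb-2. Under quantile normalization the genes that rose were 8 for Col-0, 9 for smeb-1 and 8 for smeb-2. Those that rose also changed in number when a library was left out. In smeb-1 this was so without a Col-0 salt library, which does not enter that difference. A fall of more than 1 on the log2 scale was seen for 24 genes in Col-0, for 16 in smeb-1 and for 18 in smeb-2. The share of all tested genes past that fall was not counted.

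The difference in salt response between the mutants and Col-0 was tested directly as an interaction, with both lines averaged. The response was higher, that is less negative or more positive, in smeb for 25 of the 35 genes and lower for 0, where 6.18% of all tested genes were called higher and 3.78% lower. The median was 0.63 over the 35 genes and -0.02 over all tested genes. The 25 were all 12 photosystem I genes, 10 of 11 photosystem II genes (all but PSBS), PETE2, ATPD and RCA. PSAD2 had the largest value, 1.63 ± 0.131 (limma adjusted p = 0.000153), followed by PSAH2 at 1.04 ± 0.206 and PSAK at 0.95 ± 0.144. In photosystem II the value was 0.87 ± 0.0980 for PSBQ2, 0.56 ± 0.0789 for PSBO1 and 0.37 ± 0.0740 for PSBO2, the smallest of the called genes. RCA had 0.68 ± 0.0893 (limma adjusted p = 0.00175), the 1 gene of the Rubisco group that was called. RBCS1B had -0.22 ± 0.134 and was not called (limma adjusted p = 0.331). Line by line, 26 genes were called for smeb-1 and 18 for smeb-2 (5.07% and 4.23% of all tested genes called higher), both set against the same Col-0 libraries. Both counts fell without some libraries and were highest without the first Col-0 salt library. The count for both lines averaged was 9 without the filter on low values. It moved in the same way when a library was left out. The number of all tested genes called moved with it, and such a fit changes the spread for every gene. The median over the 35 genes was 0.82 without the first Col-0 salt library and 0.51 without the second. For 8 genes, PSAD1, PSAD2, PSAE1, PSAE2, PSAN, PSBQ2, PSBW and PSBY, the call held under each of 19 alternatives. These leave out a minimum fold of 2, under which none of the 35 genes was called for both lines averaged.

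Without salt, with both lines averaged, 4 genes were higher (FNR2, ATPD, RBCS1A and RBCS1B) and 4 lower (PSAD2, PSAE2, PSBR and PSBW), shares near the 11.6% and 13% of all tested genes called higher and lower, and the median was -0.02. RBCS1B differed most, at 0.83 ± 0.0947 (limma adjusted p = 0.000287), with 1176 and 1106 FPKM in smeb-1 and 1157 and 1340.4 in smeb-2 against 678 and 666 in Col-0. RBCS1A was at 12911 and 13104 in smeb-1 and 13748 and 14603 in smeb-2 against 9970.5 and 10484, a difference of 0.41 ± 0.0975 (limma adjusted p = 0.0134). Of the lower genes, the log2 difference was -0.34 ± 0.0926 for PSAD2, -0.29 ± 0.0674 for PSBR, -0.20 ± 0.0561 for PSBW and -0.17 ± 0.0506 for PSAE2. All 4 mutant libraries were above both Col-0 libraries for 12 genes and below both for 10, and the other 13 overlapped. How many of all tested genes were separated in this way was not counted, so the 12 and the 10 have no background share. RBCS1B alone of the 8 kept its call under each of 19 alternatives; the counts were 9 higher and 7 lower when only the control groups entered the fit, and 1 and 0 without the filter on low values. The counts also moved when a library was left out. They fell without any 1 of the control libraries. They rose without either Col-0 salt library, although those libraries do not enter this difference. Taken singly, smeb-1 had 1 gene higher and 4 lower (9.11% and 10.7% of all tested genes), and smeb-2 had 4 higher and 0 lower (8.57% and 9.9%).

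In salt all 35 genes were higher in smeb than in Col-0, where 12.8% of all tested genes were called higher and 14.9% lower. The 4 mutant libraries were above both Col-0 libraries for each of the 35, a separation that was not counted over all tested genes. The median difference was 0.66 against -0.03 over all tested genes. PSAD2 differed most, at 2.49-fold (1.29 ± 0.0926, limma adjusted p = 7.08e-05), then PSAH2 at 1.99-fold, RBCS2B at 1.90-fold and PSAN at 1.87-fold. PSBR differed least, at 1.28-fold (0.35 ± 0.0674, limma adjusted p = 0.00531). RBCS1A stood at 13747 and 13039 FPKM in smeb-1 and 12188 and 12817 in smeb-2 against 9668 and 7649 in Col-0. Genes that had not passed the test with salt in Col-0 were higher too, PSBS by 0.54 ± 0.130 and RBCS2B by 0.95 ± 0.134. The count of 35 was the same when any 1 library was left out, and 28 when only the salt groups entered the fit. Taken singly, smeb-1 had all 35 higher and smeb-2 had 33, without PSBS and FD2 (12.4% and 7.66% of all tested genes called higher). These counts rest on the spread estimated over all 6 groups, and with only the 2 groups compared, 2 genes were called for smeb-1 and 0 for smeb-2. For smeb-2 the count was 21 without the second smeb-2 salt library, and without the filter on low values it was 21 for smeb-1 and 13 for smeb-2. These comparisons, the interaction and the salt response of Col-0 all use the same Col-0 salt libraries, so they are not independent of each other.

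**Figure D4:**
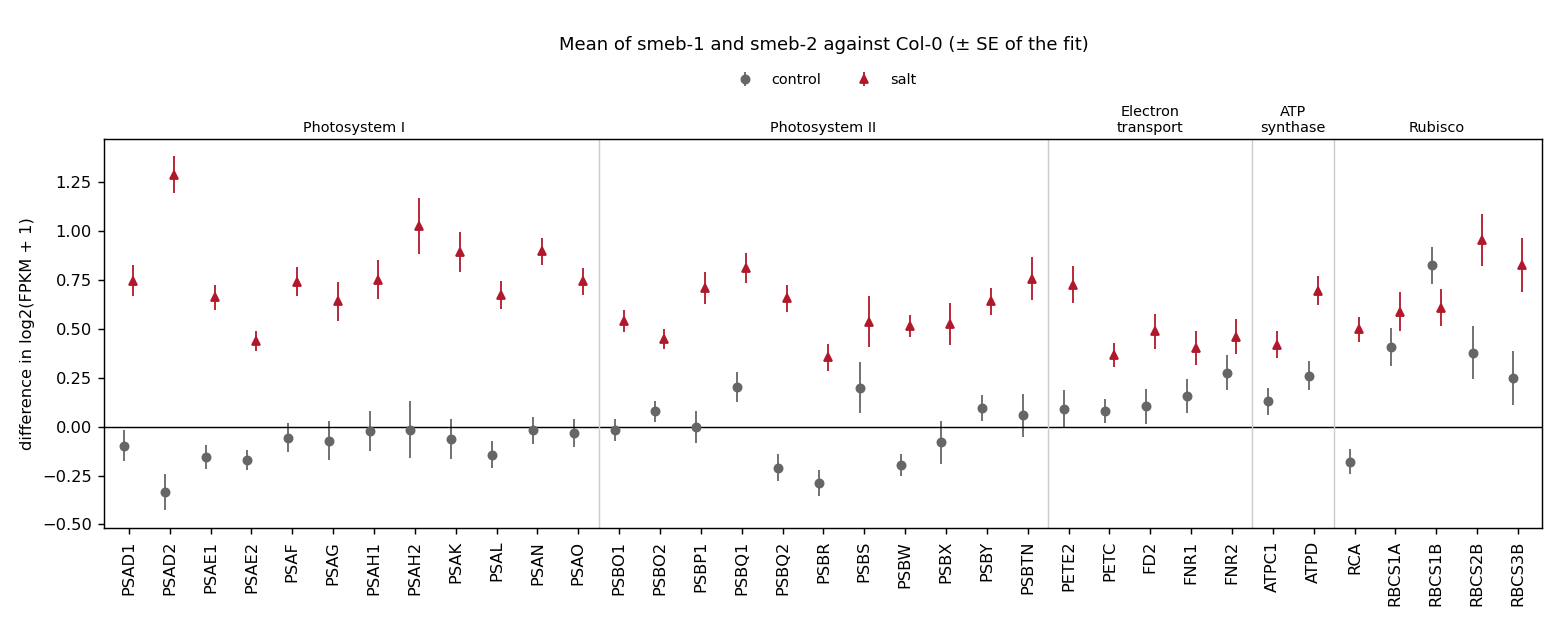
Mean of smeb-1 and smeb-2 minus Col-0 for each gene on the log2(FPKM + 1) scale, in control and in salt, with the SE of the fit as bars. In control the genes lie on both sides of 0, and in salt all 35 lie above it, from 0.35 for PSBR to 1.29 for PSAD2.

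The mutant lines were also compared with each other, since smeb-2 keeps less SmEb transcript than smeb-1. No gene of the 35 was called in control or in salt, where 0.104% and 0.286% of all tested genes were called in either direction. At an unadjusted p under 0.05 there were 1 of the 35 in control and 6 in salt (limma, 2 libraries a group). The share of all tested genes at that unadjusted p was not counted. In salt the median of smeb-2 minus smeb-1 was -0.12, from -0.51 for PSAD2 to 0.27 for PSAE2. PSAD2 was at 168 and 145 FPKM in smeb-2 and 228 and 218 in smeb-1, without overlap (difference -0.51 ± 0.107, limma adjusted p = 0.0930). With either Col-0 salt library left out, PSAD2, PSAF and FD2 passed the test as lower in smeb-2 and PSAE2 as higher. Those libraries do not enter this difference, and the median stayed at -0.12. Only the spread used by the test changed, and it changed for all tested genes.

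The share of each copy in its family's total FPKM was compared between salt and control libraries. PSBQ1 made up 32.5% to 41.1% of PSBQ FPKM in the control libraries and 68.1% to 72.2% in the salt libraries of all lines. PSBO2 went from 19.3% to 21.1% in control to 27.7% to 29.6% in salt, and FNR1 from 30.6% to 33.4% to 42.0% to 43.8%. For PSBQ, PSBO and FNR the salt and control libraries did not overlap. In the PSAD pair it was the major copy that gained, with PSAD1 at 68.3% to 73.2% in control and 76.7% to 85.0% in salt. The shares overlapped for PSAH2, with 52.8% to 54.7% in control and 47.1% to 56.5% in salt, and for PSAE2, with 29.1% to 32.2% in control and 31.2% to 38.2% in salt. Among the Rubisco small subunits, RBCS1B went from 3.76% to 5.41% in control to 11.0% to 13.6% in salt, and RBCS1A from 57.3% to 59.9% to 48.1% to 54.4%. Coding identity was 86.3% between the PSAD copies, 83.6% between the PSBO copies, 76.5% between the PSBQ copies and 73.7% between the FNR copies, lower than among the Rubisco genes.

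**Figure D5:**
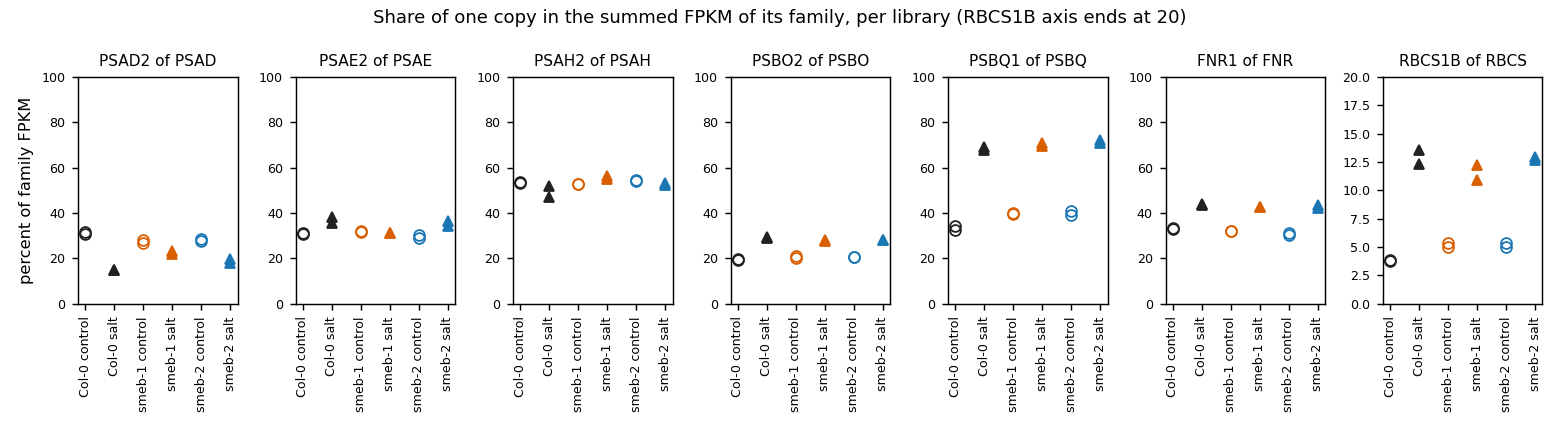
Share of 1 copy of each of 7 gene families in the summed FPKM of its family (percent; axis from 0, ending at 100, or at 20 for RBCS1B) in each of the 12 libraries (circles, control; triangles, salt). PSBQ1 lies between 32.5% and 41.1% in control and between 68.1% and 72.2% in salt, and RBCS1B between 3.76% and 5.41% and between 11.0% and 13.6%.

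The counts of related lists with salt in Col-0 stand against 27.7% of all tested genes called lower and 34.1% higher. Of 20 genes of the light-harvesting antenna, which feed both photosystems, 19 fell and 1 rose with salt in Col-0, with a median of -4.99, from CAB2 at -7.65 ± 0.284 (2387 FPKM in control and 11.9 in salt) to LHCB4.3 at 1.33 ± 0.128. Of 17 further genes of electron transport, 10 fell and 4 rose, with PETE1, the minor plastocyanin, at -2.10 ± 0.115 and FD1, the minor leaf ferredoxin, at 1.17 ± 0.0884. Of 17 genes of the Calvin cycle, 6 fell and 3 rose with a median of 0.02, from GAPA-2 at -0.68 ± 0.105 to EMB3119, a ribose-5-phosphate isomerase, at 0.64 ± 0.0797. Of 13 photorespiration genes tested, 2 fell and 3 rose with a median of -0.04, from GGT1, a glutamate glyoxylate aminotransferase, at -0.52 ± 0.0898 to GLDP2, a glycine decarboxylase P protein, at 0.94 ± 0.0814. Between smeb and Col-0 in salt, 17 of the 20 antenna genes, 15 of the 17 Calvin cycle genes and 10 of the 13 photorespiration genes were higher and 0 were lower. Elsewhere 10 of the 17 further electron transport genes were higher and 3 lower, 8 of the 19 regulators were higher and 6 lower, and 2 of the 17 plastid-encoded genes were higher and 0 lower with a median of 0.01. Of all tested genes, 12.8% were higher and 14.9% lower in that comparison. Transcripts of 17 plastid-encoded subunits were low in these libraries, with a summed FPKM between 53.2 and 268, and 10 fell and 0 rose with salt in Col-0, with ATCG00280 at -1.42 ± 0.328. Of 19 tested regulators of photosynthesis genes, 9 rose and 7 fell, with HY5, a light-signalling activator, at 2.13 ± 0.131 and PIF4, a growth factor that counters light signalling, at -5.04 ± 0.155. In control the largest differences of smeb from Col-0 were 0.80 ± 0.111 for LHCB4.3 and -0.82 ± 0.0807 for LHCB2.1 in the antenna, and 0.76 ± 0.0798 for PSB28 and -0.47 ± 0.0592 for PGRL1B in electron transport. Carbon metabolism had EMB3119 at 0.69 ± 0.0690, AT1G11860 of photorespiration at 0.50 ± 0.0717 and GGT1 at -0.43 ± 0.0778. Among the regulators these were HY5 at 0.44 ± 0.114 and SIGE, a plastid sigma factor gene, at -1.26 ± 0.106. Each gene named here with a difference was called by limma with Benjamini-Hochberg adjustment.

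Markers of other cells were read in the same libraries. The 10 root markers summed to between 1239.8 and 1383 FPKM in the control libraries and to between 663 and 852 in salt, with 842 and 794 in Col-0, 852 and 689 in smeb-1 and 663 and 697 in smeb-2. With salt in Col-0, 4 of the 10 were called lower and 2 higher, where 27.7% of all tested genes were lower and 34.1% higher. NRT2:1, a root nitrate transporter, was at 3.19 ± 0.240 and SHV2, also named COBL9, a root hair gene, at -0.93 ± 0.163. Both were low, with Col-0 means of 0.059 FPKM in control and 8.70 in salt for NRT2:1, and 2.53 and 0.855 for SHV2. NRT2:1 was under 1 FPKM in the controls of every line, so it passed the filter only through salt libraries. In control WOX5, a marker of the root stem cell niche, was higher in smeb by 0.68 ± 0.184 and the other 9 were not called. The 5 guard cell markers summed to between 1709 and 1971 in control and between 1530 and 1790 in salt, and in Col-0 1 of them, FMA, rose by 0.34 ± 0.101 and the other 4 were not called. None of the 15 was at 0 in any library. Between smeb and Col-0 in salt the root marker sums overlapped, and 5 of the 10 were called higher and 1 lower, with a median of 0.32 against -0.03 over all tested genes, of which 12.8% were higher and 14.9% lower. Their part in the results was not tested.

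The authors' deposited tables of splicing events, 137 and 208 in number, list 1 event each for PSBO1 and RBCS1A and none for the other 33 genes. Over all genes the events lie in 131 and 199 genes, where the expression table holds 33559. In the authors' deposited table, the PSBO1 event spans 26569323 to 26569402 on chromosome 5, plus strand, is typed as intron retention and has an FDR of 0.000297. The form that the table calls skip, with no word on which form keeps the stretch, had 18 of 33476 reads under the heading smeb_Na, 0.0538% (95% Wilson interval 0.0340 to 0.0850), and 65 of 80571 under the heading Col-0, 0.0807% (0.0633 to 0.103). The RBCS1A event in the authors' deposited table spans 25048525 to 25048638 on chromosome 1, minus strand, with an FDR of 0.0353. The skip form had 4 of 225545 reads under the heading WT_Na, 0.00177% (0.00069 to 0.00456), and 18 of 234709 under the heading WT, 0.00767% (0.00485 to 0.0121). Both are shares of well under a percent. Reads are pooled over libraries in these tables, the intervals cover counting error only, and the headers name neither the smeb line nor the treatment of the sample headed Col-0.

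The sequences inside the event borders are shown because their ends are not those of most introns; the first and last 2 bases, where introns usually carry GT and AG, are in capitals.
PSBO1 event, 78 bases: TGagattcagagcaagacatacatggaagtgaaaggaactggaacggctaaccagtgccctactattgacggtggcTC
RBCS1A event, 112 bases: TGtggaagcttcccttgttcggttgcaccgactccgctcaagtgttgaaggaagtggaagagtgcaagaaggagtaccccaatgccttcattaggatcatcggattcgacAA
Neither starts with GT or ends with AG, whereas 72 of the 76 events of this type in the tables do. Neither is an annotated intron. The PSBO1 stretch lies inside exon 2 of 3 of its 1 annotated transcript. The RBCS1A stretch lies inside exon 3 of 3 of an annotated transcript, and inside the coding sequence of 1 of its 2 transcripts.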

How the data were processed

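RNA of whole seedlings was sequenced in 12 libraries, 2 in each of 6 groups. The submitters' processing notes name Trimmomatic 0.32, TopHat2 2.0.13 and the genome build TAIR10. The authors deposited a table of FPKM values, 1 for each gene in each library. Which tool, annotation, library totals and strand setting lie behind it is not given in the sources used here. Being relative to the library total, FPKM is not absolute, so a change in abundant genes shifts the others. The splicing tables hold read counts joined in a cell, with the p-value and FDR of each event from the authors, per the file headers, and the authors' deposited enrichment tables were not used. 0 columns of the expression table were left unmapped.

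Genes with an FPKM of at least 1 in at least 2 libraries, 20251 of 33559, were tested with limma 3.58.1, using its trend option, in R 4.3.3 after conversion to log2(FPKM + 1), with 1 mean per group over all 12 libraries and Benjamini-Hochberg adjustment over all tested genes within a comparison. Differences are on this log2 scale, and ± beside a difference is the SE of the fit, while beside an FPKM it is the SD of 2 libraries. The fit was tested on simulated data in which each gene had 1 spread for all 6 groups. It cannot show how the p-values behave where a pair differs more, as the Col-0 salt libraries do. The scaling was varied (median-of-ratios, quantile normalization, a common total), and so were the pseudocount (0.1), the filter (none), the libraries in the fit (those of the groups compared, or all but 1), the threshold (at least 2-fold) and the model (the 0 or 1 of the column names added as a block). With 1 library left out, the spread of its lone partner is taken from the other 5 groups. Such a fit changes the spread for all tested genes, so counts of calls move over all of them. Counts of calls kept under all 19 alternatives leave out the minimum fold. Since depth is unknown, no interval is given for FPKM. The 35 genes, the related gene lists and the tests were chosen with earlier results of these data known. Genes named from the related lists are the called genes with the largest rise and the largest fall with salt in Col-0 or between smeb and Col-0 in control. Promoter windows and gene positions come from RefSeq's annotation of TAIR10.1, in which 32817 gene identifiers and all 35 genes were found; 72 of 76 intron retention events of the deposited tables had GT and AG at their borders in it. Wilson intervals at 95% are for pooled reads and cover counting error only.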

Additional observations from a re-analysis of the deposited data

Results flagged for a closer look

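In 25 of the 35 genes the salt response differed between smeb and Col-0 by the interaction test (limma, Benjamini-Hochberg adjustment over all tested genes, both mutant lines averaged), each time higher in smeb on the log2(FPKM + 1) scale. In photosystem I the differences were 0.842 for PSAD1, 1.63 for PSAD2, 0.817 for PSAE1, 0.611 for PSAE2, 0.796 for PSAF, 0.713 for PSAG, 0.776 for PSAH1, 1.04 for PSAH2, 0.954 for PSAK, 0.816 for PSAL, 0.915 for PSAN and 0.774 for PSAO. In photosystem II they were 0.556 for PSBO1, 0.369 for PSBO2, 0.713 for PSBP1, 0.609 for PSBQ1, 0.865 for PSBQ2, 0.642 for PSBR, 0.708 for PSBW, 0.604 for PSBX, 0.546 for PSBY and 0.7 for PSBTN. Outside the photosystems they were 0.634 for PETE2, 0.435 for ATPD and 0.677 for RCA. The Col-0 salt libraries enter all of these and differ from each other more than any other pair.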

How the results depend on the processing

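With 2 libraries a group, unknown depth and values scaled to the library total, small differences are not settled here. FD2, RBCS1A and RBCS3B sit closest to the limit with salt in Col-0. PSBS and RBCS2B lie further from it but were called under some alternatives. Calls that held under all 19 alternatives numbered 27 of 32 with salt in Col-0, 20 of 28 with salt in smeb-1, 20 of 30 with salt in smeb-2, 1 of 8 for smeb against Col-0 in control, 21 of 35 in salt and 8 of 25 for the difference in salt response. Where no reason is named, the cause was not tested.

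Quantile normalization, which gives each rank nearly the same value in every library by construction, turned the sign of some salt differences. In Col-0 they were PSBS 0.49, PETC 0.34, FD2 0.71, RCA 0.59, RBCS1A 0.91 and RBCS3B 0.90. In smeb-1 they were PSBQ1 0.034, PSBX 0.089, PSBTN 0.12, PETE2 0.31 and PETC 0.44. In smeb-2 they were PSBQ1 0.10, PSBTN 0.01, PETE2 0.26, PETC 0.36 and RBCS3B 0.89. Quantile normalization also turned RBCS1A to -0.91 in the response of smeb-2 against Col-0. Among values not called, it turned ATPC1 to 0.11 with salt in smeb-1, and in the response RBCS1A to -0.22 for smeb-1 and -0.57 for both lines. Other uncalled values that changed sign are not listed. Members called higher with salt became 8 for Col-0, 9 for smeb-1 and 8 for smeb-2. Against Col-0 in control the lower calls became 0 for both lines and for smeb-1, and smeb-1 had 2 higher. Response calls became 14 for smeb-1, and 10 higher and 1 lower for smeb-2. Scaling to a common total turned the Rubisco sum of Col-0 to 1.03 of control and left 1 lower call for smeb-1 in control. Median-of-ratios scaling left 2 higher in control, for both lines and for smeb-2.

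Without the filter on low values, 1 gene was called higher with salt in smeb-1 and 1 in smeb-2. In control there were 1 higher and 0 lower for both lines, 0 lower for smeb-1 and 1 higher for smeb-2. In salt there were 21 higher for smeb-1 and 13 for smeb-2, and response calls were 9 for both lines, 7 for smeb-1 and 3 for smeb-2. With only the groups compared, control calls were 9 higher and 7 lower for both lines, 6 higher for smeb-1, and 9 higher and 1 lower for smeb-2. In salt they were 2 for smeb-1 and 0 for smeb-2, and 17 for the response of smeb-1. A minimum fold of 2 left 20 lower with salt in Col-0, 12 lower and 1 higher in smeb-1, and 13 lower and 1 higher in smeb-2. It left 0 calls in either direction in every comparison of smeb with Col-0 in control or salt, 1 for the response of smeb-1 and 0 for the other responses.

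The column suffix did not pair the samples, since the differences between suffixes correlated between groups at r from -0.125 to 0.112 over 15 pairs of groups. With the suffix as a replicate block, smeb-2 had 2 higher and 1 lower in control, and PSAD2 was the 1 gene lower in smeb-2 than in smeb-1 in salt. The block kept the other counts within 1.5 times.

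When each library was left out in turn, the higher and lower calls with salt were 1 to 2 and 29 to 33 in Col-0, 2 to 6 and 24 to 27 in smeb-1, and 1 to 2 and 26 to 28 in smeb-2. In control they were 1 to 9 and 0 to 7 for both lines, 1 to 7 and 0 to 7 for smeb-1, and 1 to 10 and 0 to 4 for smeb-2. Higher calls in salt were 35 to 35 for both lines, 32 to 35 for smeb-1 and 21 to 35 for smeb-2. Response calls were 18 to 34 for both lines, 17 to 34 for smeb-1 and 9 to 31 for smeb-2. Between smeb-2 and smeb-1 in salt a few calls appeared in some of these fits. Each such fit changes the spread for all tested genes, and the number called over all of them moved as well.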
